A study of Mus musculus with 6 samples.

Results

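The genes examined here encode the nuclear subunits and the Nduf-named assembly factors of mitochondrial complex I, measured by RNA sequencing in mouse embryonic fibroblasts (MEFs) with and without the protease YME1L. Members were taken by name: after each locus name was split at its commas, a locus was kept when one of its symbols began with Nduf, followed by a, b, c, s, v, ab or af and a number. This rule found 46 of 51499 loci and used no measured value. Of these, 44 held enough reads to be tested. The samples were 3 cultures of SV40-immortalized MEFs with the floxed, intact Yme1l gene (genotype Yme1l fl/fl, called WT) and 3 cultures of MEFs in which both copies had been deleted (Yme1l-/-). No culture received a drug. Both genotypes are cell lines. Both came from the same procedure: after transduction with Cre recombinase, single clones were grown up and typed as WT or knockout. The effect of the deletion therefore cannot be told apart from a difference between clones. The p-values measure the spread between cultures.

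Complex I (NADH:ubiquinone oxidoreductase) is the entry point for electrons from NADH into the respiratory chain of the inner mitochondrial membrane. Its peripheral arm oxidizes NADH and passes the electrons over iron-sulfur clusters to ubiquinone, and its membrane arm pumps protons. A small set of core subunits carries out catalysis. The core subunits of the peripheral arm are encoded in the nucleus, and those of the membrane arm in mitochondrial DNA (mtDNA). The remaining accessory subunits surround the core and stabilize it, and assembly factors help to build the enzyme from preformed modules without staying in it. YME1L, the i-AAA protease, sits in the same membrane and degrades membrane and intermembrane-space proteins. The comparison asks which complex I transcripts differed in level between cells with and without this protease.

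Yme1l1 itself was counted at 6327, 6292 and 5968 fragments in the WT libraries and at 1327, 1963 and 2067 in the Yme1l-/- libraries. This left 20.8% of the WT level (log2 fold change -2.27 ± 0.05, SE, n = 3 per genotype; edgeR adjusted p = 2.4e-11), and the genotypes did not overlap. The libraries held 33180867 to 49351107 fragments. The contrast was broad: 67.7% of the 13867 loci tested passed an adjusted p of 0.05 in edgeR's quasi-likelihood test. Of the 10 fibroblast markers examined, 7 reached 10 CPM in every library, while Thy1 was at 0.118 to 0.178 CPM in WT and at 0 in the Yme1l-/- libraries. The summed level of the fibroblast markers was 10669 to 11336 CPM in WT and 6833 to 7363 CPM in Yme1l-/- cultures (here fragments per library total, without further scaling). Vim and Fn1 were lower in every Yme1l-/- library than in any WT library, whereas Col1a1 was higher, with 1465 to 1649 CPM in WT and 2126 to 2356 CPM in Yme1l-/- cultures. Of 4 epithelial markers only Krt18 exceeded 1.47 CPM in any library, at 30.5 to 32.3 CPM in WT and at most 0.0610 CPM in Yme1l-/- cultures. The summed leukocyte markers, nearly all Cd68, were at 1.63 to 1.82 CPM in WT and 3.49 to 4.07 CPM in Yme1l-/- cultures, and the muscle markers, nearly all Des, at 0.392 to 0.588 and 2.22 to 3.32 CPM, while Cd3e and Myog were at 0 in all 6 libraries. The summed endothelial markers reached at most 0.203 CPM. Whether these marker differences have a part in the complex I values was not tested.

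Most complex I transcripts were modestly more abundant in Yme1l-/- cells. Of the 44 tested members, 30 rose, where 33.6% of all loci tested were called higher. Another 4 fell, where 34.1% of all loci were called lower, and 10 did not pass the test. The median log2 fold change of the members was 0.28, which corresponds to 1.21 times the WT level, beside a median of -0.0041 over all loci tested. The members ranged from -0.52 for Ndufaf4 to 0.72 for Ndufs4, and 35 of 44 lay above 0, as 49.8% of all loci did. In 32 of the 44 the WT and Yme1l-/- libraries did not overlap, which was the case for 71.9% of all loci. Changes of size were few: 11 members were called higher by at least 0.5 on the log2 scale, as were 19.7% of all loci, and 1 was called lower by that much, as were 17.6% of all loci. When the median log2 fold change of each chromosome was removed in the fit, 22 members were called higher (31.1% of all loci) and 1 lower (31.7% of all loci). The median of the members was then 0.14.

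**Figure D1:**
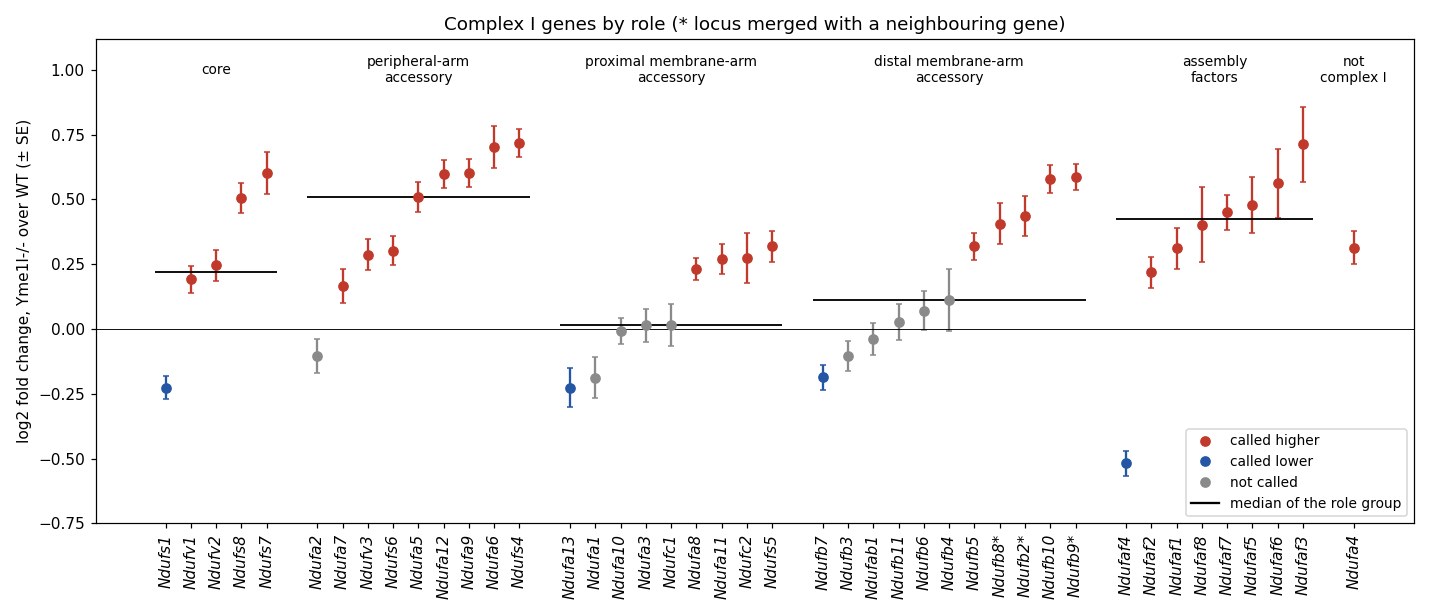
Log2 fold change of Yme1l-/- over WT (y axis, ± SE, 3 cultures per genotype) for 43 of the 44 tested members (x axis), grouped by role, with red for called higher, blue for called lower and grey for not called, and a black line at the median of all tested members of each group. The peripheral-arm accessory subunits (median 0.51) and the assembly factors (median 0.43) sit highest, the proximal membrane-arm accessory subunits lie around 0 (median 0.015), and Ndufaf4 stands alone at -0.52.

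The upward tendency was present in each knockout library. Relative to the WT mean of each member, the median log2 ratio was 0.317, 0.253 and 0.249 in the Yme1l-/- libraries and 0.064, -0.024 and -0.050 in the WT libraries. The summed level of the 44 members was 2518, 2353 and 2335 CPM in WT and 3015, 2765 and 2778 CPM in Yme1l-/- libraries. Replicate 1 was the highest of the 3 in both genotypes, and every WT library lay below every Yme1l-/- library. Cultures of a genotype were close to each other: the median coefficient of variation of the members was 5.11% in WT and 5.63% in Yme1l-/- cells, with the widest spread for Ndufaf8 in WT (21.9%) and for Ndufaf3 in Yme1l-/- cells (18.0%).

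**Figure D2:**
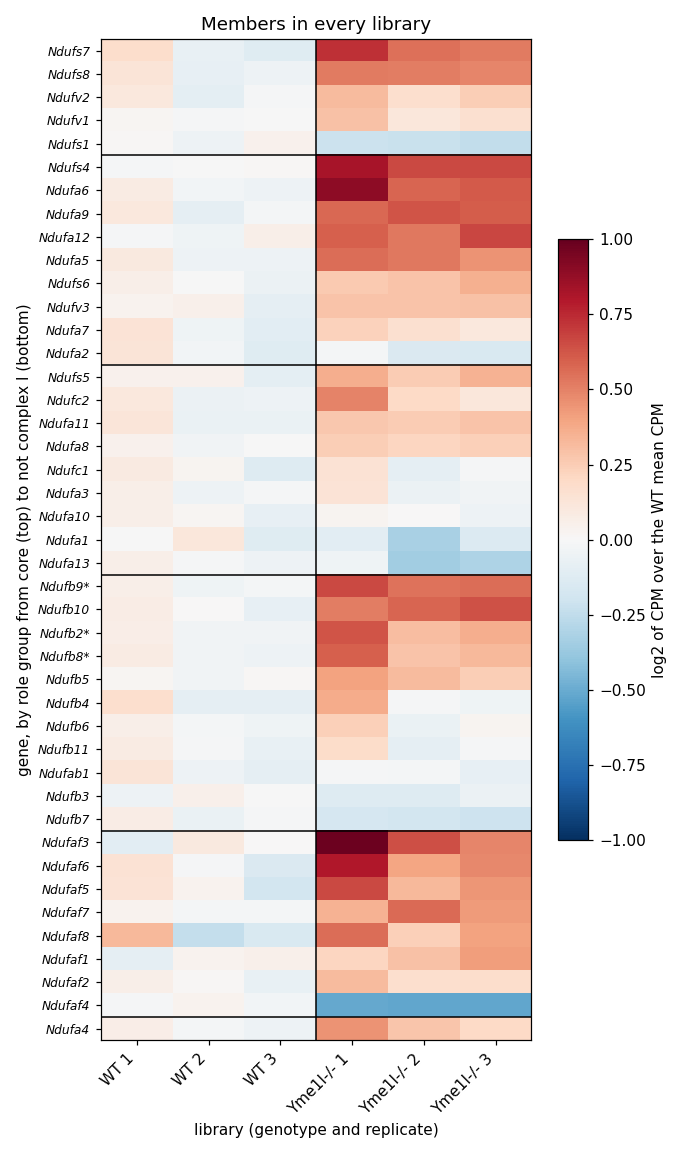
Log2 ratio of the level in each library (columns, 3 WT and 3 Yme1l-/-) to the mean WT level of the same gene (rows, 43 of the 44 tested members, grouped by role from the core at the top to Ndufa4 at the bottom), in red above and in blue below the WT mean. Values run from -0.237 to 0.323 in the WT columns and from -0.522 to 0.981 in the Yme1l-/- columns, where Ndufs7, Ndufs8, Ndufs4, Ndufa6 and Ndufaf3 are red in all 3 libraries and Ndufaf4 is blue in all 3.

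The start regions of these genes are shown here because some of them share short sequence elements. RefSeq windows of 300 bases, from 250 bases before to 50 after an annotated start (build GRCm38.p6), were at hand for 40 of the 46 members in 42 windows. The letters of 4 motifs were searched on both strands. The core letters of the binding motif of YY1, a zinc-finger factor of many mitochondrial genes (AAGATGG, or CCATCTT on the other strand), stood in 19% of the member windows, in 7.08% of the 12775 windows of genes tested and in 6.34% of all 32851 windows. The half-site of NRF1, a regulator of nuclear genes for respiration (GCGCATG, or CATGCGC), stood in 16.7%, 6.72% and 3.91%. The ETS letters to which the factor GABP binds (CCGGAAG, or CTTCCGG) stood in 14.3%, 17.2% and 8.86%. The composite element bound by ATF4, a stress-response factor (TGATGNAA, or TTNCATCA), was in 0 of the 42 member windows and in 2.2% of the windows of genes tested. The end of the ETS letters equals the start of the YY1 letters, so these 2 can overlap, as can NRF1 matches on opposite strands.

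The YY1 letters stood in 8 members, all on the coding strand and all after the start, with the first base 11 to 39 bases past it. In 7 of the 8, all but Ndufaf8, the ATG inside the motif was an annotated start codon, so the motif spans the first codon of the protein. Over the windows of all genes tested, 1.47% held these letters at an annotated start codon, against 16.7% of the member windows. This position was looked up after the matches had been seen, and it is a description. The stretches below give the motif in capitals with up to 10 bases on either side, read in the direction of the gene.
Ndufa3 (chr7:3617385-3617411, plus strand): cgccaagaacAAGATGGccgggagtaa
Ndufa9 (chr6:126849099-126849125, minus strand): attgtgggagAAGATGGcggccgccgt
Ndufaf8 (chr11:120098934-120098960, plus strand): ggcagggcccAAGATGGcggcgccctc
Ndufb8 (chr19:44555393-44555414, minus strand): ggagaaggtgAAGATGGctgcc
Ndufc1 (chr3:51408917-51408943, minus strand): cctgcggaacAAGATGGcgccgtccgt
Ndufs4 (chr13:114388045-114388069, minus strand): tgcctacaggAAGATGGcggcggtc
Ndufs6 (chr13:73328433-73328459, minus strand): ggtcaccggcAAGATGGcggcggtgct
Ndufs7 (chr10:80249463-80249489, plus strand): ggccgaggccAAGATGGcggcgctggc

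Among these 8, Ndufs4, Ndufs7, Ndufa9, Ndufs6, Ndufb8 and Ndufaf8 were called higher in Yme1l-/- cells, and Ndufa3 and Ndufc1 were not called. As a share, the YY1 letters stood in 20.7% of the windows of members called higher and in 16.7% of the windows of members called lower or not called, which are 29 and 12 windows.

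The NRF1 letters stood in 7 members at 8 places. In Ndufa11, Ndufaf4 and Ndufaf5 a match on either strand overlapped to give an unbroken palindrome of 10 bases, here all in capitals, and Ndufaf4 carried a further single match at its start.
Ndufa11 (chr17:56717692-56717721, plus strand): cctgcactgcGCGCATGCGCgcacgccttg
Ndufa6 (chr15:82354357-82354383, minus strand): cgcggtagagCATGCGCattgcagagc
Ndufa8 (chr2:36049329-36049355, minus strand): gctggagacgCATGCGCagatggtacc
Ndufaf4 (chr4:24897960-24897989, plus strand): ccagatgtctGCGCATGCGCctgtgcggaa
Ndufaf4 (chr4:24898074-24898100, plus strand): cccctggtgtGCGCATGctccgtgcgt
Ndufaf5 (chr2:140170652-140170681, plus strand): agtcccgttgGCGCATGCGCctaatagaaa
Ndufb6 (chr4:40279482-40279508, minus strand): agagggctttGCGCATGagcagagcct
Ndufb8 (chr19:44555420-44555446, minus strand): acccgcttttGCGCATGtgcagagtga

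Of these 7 members, Ndufa6, Ndufa8, Ndufa11, Ndufaf5 and Ndufb8 were called higher, Ndufb6 was not called, and Ndufaf4 was called lower. The 250 bases before the start are given in full for the members at both ends of the range, Ndufs4 and Ndufaf4, with letters of any of the 4 motifs in capitals.
Ndufs4 (chr13:114388095-114388344, minus strand): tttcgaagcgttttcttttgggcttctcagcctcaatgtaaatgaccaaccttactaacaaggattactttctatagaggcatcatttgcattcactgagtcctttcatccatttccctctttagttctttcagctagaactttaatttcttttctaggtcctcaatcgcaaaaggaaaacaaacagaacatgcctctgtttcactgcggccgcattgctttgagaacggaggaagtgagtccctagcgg
Ndufaf4 (chr4:24897833-24898082, plus strand): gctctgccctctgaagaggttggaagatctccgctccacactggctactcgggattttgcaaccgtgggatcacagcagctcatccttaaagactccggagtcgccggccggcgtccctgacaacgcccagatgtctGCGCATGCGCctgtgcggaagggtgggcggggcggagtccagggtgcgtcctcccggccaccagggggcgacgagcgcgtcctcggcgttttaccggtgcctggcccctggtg

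Upstream of its start, Ndufs4 held none of these motifs and Ndufaf4 held the palindromic NRF1 site.

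The core subunits of the peripheral arm bind the cofactors of the enzyme. Of the 7 nuclear core genes 6 could be tested: 5 rose (33.6% of all loci), Ndufs1 fell (34.1% of all loci), and the median log2 fold change was 0.22. In all 6 the genotypes did not overlap, as in 71.9% of all loci. Values given below as a number ± SE after a gene name are log2 fold changes of Yme1l-/- over WT, with 3 cultures per genotype, and CPM are given with their SD. The largest change was that of Ndufs7 (chr10:80249121-80256794), whose protein holds the last iron-sulfur cluster before ubiquinone. Its libraries held 2291, 1909 and 1847 fragments in WT and 3556, 4540 and 4484 in Yme1l-/- libraries. In CPM it went from 61.4 ± 6.85 to 93.2 ± 7.34 (SD, n = 3), and the log2 fold change was 0.60 ± 0.08 (SE, edgeR adjusted p = 8.5e-05). Its lowest knockout library was above its highest WT library. Ndufs8 (chr19:3908863-3912774), which carries the neighbouring iron-sulfur clusters, was counted at 1476, 1262 and 1287 fragments in WT and at 2045, 2932 and 2926 in Yme1l-/- libraries. Its level rose from 40.9 ± 3.27 to 58.0 ± 0.519 CPM (SD, n = 3), and the log2 fold change was 0.51 ± 0.06 (adjusted p = 1.5e-05), again without overlap.

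Smaller rises were found for Ndufv2 (0.25 ± 0.06), which holds an iron-sulfur cluster near the site of NADH oxidation, and for Ndufv1 (0.19 ± 0.05), which binds NADH and the flavin. Ndufs1 (chr1:63143596-63176833), the core subunit with the most iron-sulfur clusters, moved the other way. The counts were 3632, 3447 and 3657 fragments in WT and 3294, 4722 and 4676 in the Yme1l-/- libraries, of which replicates 2 and 3 were sequenced more deeply, which corresponds to 109 ± 3.41 and 93.2 ± 1.24 CPM (SD, n = 3). Its log2 fold change was -0.23 ± 0.04 (adjusted p = 0.000815), and each knockout library lay below each WT library. With chromosome medians removed it stood at -0.07 and was not called (adjusted p = 0.181).

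The locus of Ndufs3, a core subunit without a cofactor, was listed at 0, 0 and 0 fragments in WT and at 1, 2 and 2 in Yme1l-/- libraries and was not tested. Kbtbd4, Ptpmt1 and Gm17661, which share its stretch of chromosome 2 (90894634 to 90918258), were listed at 0 fragments in all 6 libraries. These values are given as listed, with no fold change, and are not read as the absence of the transcript.

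The accessory subunits of the peripheral arm made up the group with the highest median as measured. With chromosome medians removed, their median was 0.17, below 0.31 for the assembly factors and 0.19 for the core. Of 9 genes, 8 rose and none fell (0 also at an unadjusted p of 0.05 in edgeR and 0 in DESeq2, but with a replicate block Ndufa2 was called lower, at -0.10 with an adjusted p of 0.0482), beside 33.6% and 34.1% of all loci. The median log2 fold change was 0.51, and 5 of the 9 were called higher by at least 0.5, as were 19.7% of all loci. Ndufs4 (chr13:114287795-114388258), an accessory subunit near the NADH-oxidizing tip whose loss in mice is a standard model of complex I deficiency, had the highest log2 fold change of all 44. The libraries held 1578, 1569 and 1585 fragments in WT and 2980, 3822 and 3877 in Yme1l-/- libraries. Its level was 48.0 ± 0.448 CPM in WT and 79.0 ± 5.32 CPM in Yme1l-/- cells (SD, n = 3), and the log2 fold change was 0.72 ± 0.05 (adjusted p = 4.8e-07). The 3 WT libraries were nearly identical, and all 3 knockout libraries stood far above them.

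Ndufa6 (chr15:82350140-82354322), a protein of the LYR family that anchors an acyl carrier protein in the arm, was counted at 1223, 1124 and 1100 fragments in WT and at 2276, 2640 and 2731 in Yme1l-/- libraries. It rose from 35.0 ± 1.73 to 57.0 ± 6.99 CPM, and the log2 fold change was 0.70 ± 0.08 (adjusted p = 1.8e-05). The median of all loci on its chromosome 15 was itself 0.59, so that Ndufa6 exceeded its chromosome by 0.11, a difference that did not pass the test (adjusted p = 0.265). Ndufa9 (chr6:126821721-126849136), which binds NADPH at the joint of both arms, was counted at 2893, 2500 and 2626 fragments in WT and at 4241, 6352 and 6302 in Yme1l-/- libraries. It rose from 81.4 ± 5.58 to 124 ± 2.39 CPM, and the log2 fold change was 0.60 ± 0.05 (adjusted p = 1.9e-06). In both genes the genotypes did not overlap.

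Ndufa12 (chr10:94198720-94221443) occupies a site that the related assembly factor Ndufaf2 is thought to hold before it. Its counts were 1487, 1440 and 1543 fragments in WT and 2409, 3295 and 3673 in Yme1l-/- libraries, or 45.4 ± 1.68 and 68.8 ± 3.37 CPM, and the log2 fold change was 0.60 ± 0.05 (adjusted p = 1.6e-06). Ndufa5 (chr6:24518666-24528013), an accessory subunit of the ubiquinone-reducing module, was counted at 1152, 1027 and 1024 fragments in WT and at 1677, 2357 and 2256 in Yme1l-/- libraries. Its level was 32.5 ± 1.98 CPM in WT and 46.3 ± 1.86 CPM in Yme1l-/- cells, and the log2 fold change was 0.51 ± 0.06 (adjusted p = 1.4e-05). All knockout libraries exceeded all WT libraries for both. The remaining rises of the group were Ndufs6 (0.30 ± 0.06), Ndufv3 (0.29 ± 0.06) and Ndufa7 (0.17 ± 0.06). Ndufa7 overlapped between genotypes and lost its call when WT replicate 2 (0.14), WT replicate 3 (0.12), Yme1l-/- replicate 1 (0.14) or Yme1l-/- replicate 2 (0.17) was left out. Ndufa2 was not called (-0.10 ± 0.07).

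The accessory subunits of the membrane arm were more divided. In its proximal part, next to the peripheral arm, 4 of 9 genes rose, 1 fell and 4 did not pass the test, beside 33.6% higher and 34.1% lower calls over all loci, with a median log2 fold change of 0.015 and none at 0.5 or beyond. The rises were those of Ndufs5 (0.32 ± 0.06), Ndufc2 (0.27 ± 0.10), Ndufa11 (0.27 ± 0.06) and Ndufa8 (0.23 ± 0.04). Ndufc2 lost its call when WT replicate 2 (0.24) or WT replicate 3 (0.25) was left out and without the filter on low counts (0.27), and without Yme1l-/- replicate 1 it stood at 0.16. Ndufa10, Ndufa3 and Ndufc1 had log2 fold changes between -0.0072 and 0.015 and were not called.

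Ndufa13 (chr8:69894180-69902558), a membrane-arm subunit also studied for a part in cell death, was counted at 2976, 2803 and 2719 fragments in WT and at 2931, 3427 and 3557 in Yme1l-/- libraries. Its level fell from 86.3 ± 3.36 to 73.8 ± 8.63 CPM, and the log2 fold change was -0.23 ± 0.07 (adjusted p = 0.0196). Yme1l-/- replicate 1, at 83.8 CPM, lay within the WT range of 83.3 to 89.9 CPM, and the call was lost without WT replicate 1 (-0.20), Yme1l-/- replicate 2 (-0.17) or Yme1l-/- replicate 3 (-0.18), and under upper-quartile scaling (-0.17). With chromosome medians removed it turned to 0.089 (adjusted p = 0.320). Tssk6 covers 30.0% of its exonic bases on the opposite strand. The libraries were made with a stranded kit, but whether reads were counted by strand is not given in the sources used here. Ndufa1 (chrX:37187588-37191163), a small membrane-spanning subunit, was counted at 881, 947 and 800 fragments in WT and at 868, 1074 and 1235 in Yme1l-/- libraries. It had 26.7 ± 2.21 CPM in WT and 23.4 ± 1.88 CPM in Yme1l-/- cells, and its log2 fold change of -0.19 ± 0.08 was not called (adjusted p = 0.0547). It was called lower without the filter on low counts (-0.19), without WT replicate 3 (-0.25) and without Yme1l-/- replicate 1 (-0.23).

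In the distal part of the membrane arm, 5 of 11 genes rose, 1 fell and 5 were not called, where 33.6% of all loci were called higher and 34.1% lower, with a median log2 fold change of 0.11. The highest values were those of Ndufb9 and Ndufb10. Ndufb9, another LYR protein, was counted in a merged locus that also names Rnf139 and AC158777.2. This locus had 4166, 3841 and 3876 fragments in WT and 6678, 8860 and 9037 in Yme1l-/- libraries, or 121 ± 4.58 and 181 ± 8.29 CPM, and the log2 fold change was 0.59 ± 0.05 (adjusted p = 1.0e-06). It lies on chromosome 15, whose median was 0.59 as well, and its share of the merged count is not known. Ndufb10 (chr17:24722060-24724478), a subunit with disulfide bonds on the intermembrane-space face, was counted at 1950, 1830 and 1725 fragments in WT and at 2790, 4221 and 4421 in Yme1l-/- libraries. Its level rose from 55.9 ± 3.04 to 83.4 ± 3.53 CPM, and the log2 fold change was 0.58 ± 0.05 (adjusted p = 2.7e-06). Both loci were without overlap between genotypes.

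Ndufb5 (0.32 ± 0.05) rose as well, and so did the merged loci that hold Ndufb2 (0.44 ± 0.08, together with Adck2 and Gm42420) and Ndufb8 (0.41 ± 0.08, together with Sec31b and Gm20538). Ndufb7 (chr8:83566671-83571626), which also faces the intermembrane space, fell. It was counted at 3043, 2741 and 2831 fragments in WT and at 2730, 3874 and 3868 in Yme1l-/- libraries, or 87.5 ± 4.15 and 76.9 ± 1.05 CPM, and the log2 fold change was -0.19 ± 0.05 (adjusted p = 0.00514). The genotypes did not overlap, yet the median of chromosome 8 was -0.32, and relative to it Ndufb7 was called higher (0.13, adjusted p = 0.0350).

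Ndufb6, whose human counterpart has been described as a substrate of YME1L, was not called at the RNA level. It was counted at 1218, 1144 and 1122 fragments in WT and at 1463, 1703 and 1840 in Yme1l-/- libraries, with a log2 fold change of 0.07 ± 0.08. This gene falls outside the rule for naming with full counts and was picked for its known link to the protease. Smim27 covers 39.0% of its exonic bases on the opposite strand. Ndufb4 (0.11 ± 0.12), Ndufb11 (0.03 ± 0.07), Ndufb3 (-0.10 ± 0.06) and the mitochondrial acyl carrier protein Ndufab1 (-0.04 ± 0.06) were not called either. With chromosome medians removed, Ndufb11 (0.24, adjusted p = 0.0119) and, from the proximal part, Ndufa10 (0.15, adjusted p = 0.0241) were called higher.

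**Figure D3:**
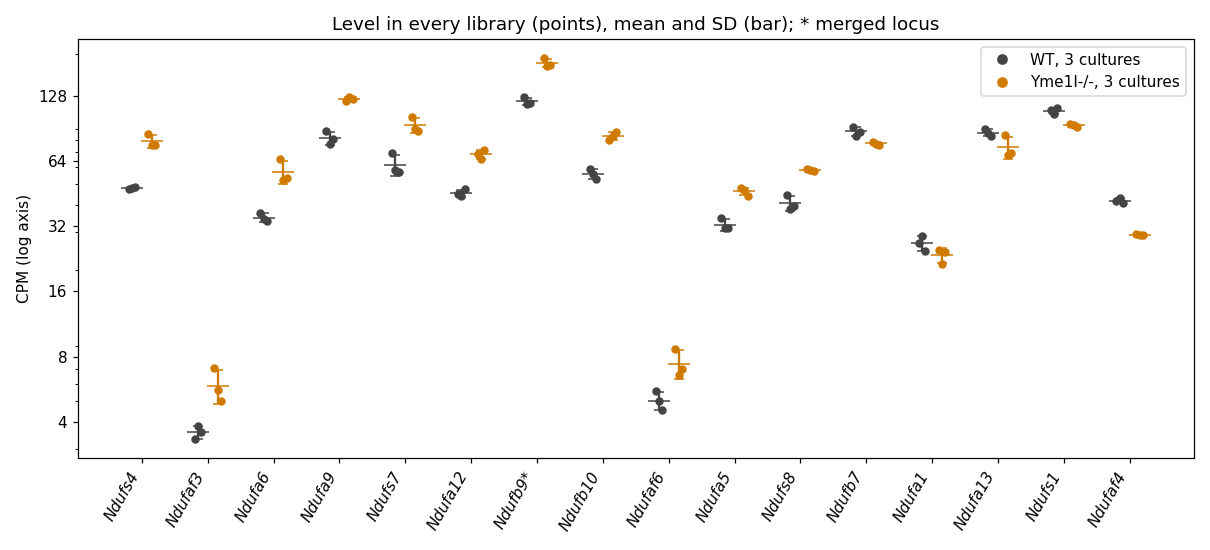
Level in CPM (y axis, logarithmic) of the 16 members described with full values (x axis, ordered by log2 fold change from Ndufs4 to Ndufaf4), with grey points for the 3 WT cultures, orange points for the 3 Yme1l-/- cultures, and a bar with whiskers for the mean and SD. From Ndufs4 to Ndufs8 all orange points lie above the grey ones, Ndufa1 and Ndufa13 overlap, and Ndufb7, Ndufs1 and Ndufaf4 lie lower in Yme1l-/- cells.

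The assembly factors were the second group with a high median, at 0.43. Of 8 tested, 7 rose (33.6% of all loci) and Ndufaf4 fell (34.1% of all loci). As a group they were less abundant than the subunits: the authors' pooled FPKM, which accounts for transcript length, was 3.26 to 69.7 in WT for the assembly factors, with a median of 11.4, against 18.0 to 247 for the 35 tested subunits, with a median of 92.8. Ndufaf3 and Ndufaf4, which act as partners in building the ubiquinone-reducing module, lay at opposite ends of the assembly factors. Ndufaf3 (chr9:108565537-108567434) was counted at 110, 125 and 117 fragments in WT and at 247, 282 and 255 in Yme1l-/- libraries. It rose from 3.57 ± 0.248 to 5.89 ± 1.06 CPM, and the log2 fold change was 0.71 ± 0.15 (adjusted p = 0.00109), and each knockout library was above each WT library. Ndufaf4 (chr4:24898083-24905001) was counted at 1377, 1408 and 1342 fragments in WT and at 1029, 1471 and 1487 in Yme1l-/- libraries. It fell from 41.9 ± 0.989 to 29.3 ± 0.130 CPM, and the log2 fold change was -0.52 ± 0.05 (adjusted p = 2.6e-06). Its 3 knockout libraries lay between 29.2 and 29.4 CPM, all below the WT range of 41.1 to 43.0 CPM. In the authors' pooled FPKM, Ndufaf3 stood at 3.26 in WT and 5.81 in Yme1l-/- cells, and Ndufaf4 at 20.6 and 14.9, so that Ndufaf4 remained the more abundant of both.

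Ndufaf6 (chr4:11051045-11076205), an assembly factor related to phytoene synthases, was counted at 183, 163 and 148 fragments in WT and at 305, 332 and 356 in Yme1l-/- libraries. It rose from 5.01 ± 0.499 to 7.43 ± 1.13 CPM, and the log2 fold change was 0.56 ± 0.13 (adjusted p = 0.00284), without overlap. Ndufaf6 and Ndufaf4 lie on the same chromosome, 4, whose median was -0.098. Ndufaf5 (0.48 ± 0.11), which hydroxylates the core subunit NDUFS7, and Ndufaf7 (0.45 ± 0.07), a methyltransferase, rose, as did Ndufaf1 (0.31 ± 0.08), a part of the assembly complex for the membrane arm. The same held for Ndufaf2 (0.22 ± 0.06), of whose exonic bases the noncoding RNA B230220B15Rik covers 65.6% on the opposite strand. Ndufaf8 (0.40 ± 0.15), the partner of Ndufaf5, overlapped between genotypes and lost its call without WT replicate 2 (0.29), WT replicate 3 (0.33), Yme1l-/- replicate 1 (0.32) or Yme1l-/- replicate 3 (0.40).

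The remaining 2 loci met the name rule without encoding a complex I protein in the strict sense. Ndufa4, now assigned to cytochrome c oxidase, was the most abundant member by the authors' pooled FPKM (314.9 in WT) and rose by 0.31 ± 0.06 on the log2 scale. Ndufa4l2, its hypoxia-inducible relative, was counted at 1, 2 and 2 fragments in WT and at 5, 14 and 12 in Yme1l-/- libraries and was not tested. Ndufb1 was not analysed here.

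The members lie on many chromosomes, and whole chromosomes differed between the lines. Of the 17 chromosomes with a tested member, the median log2 fold change of all tested loci ran from -0.36 on chromosome 9 to 0.59 on chromosome 15. All 6 members on chromosome 17 (median 0.17) and all 4 on chromosome 6 (median 0.34) were called higher, beside 33.6% of all loci tested. Neither member on chromosome 8 (median -0.32) was called higher. The shares for single chromosomes are not given here. Of the 44 members, 30 had the sign of their chromosome's median. Measured against that median, 38 of 44 members lay above it, as 50.0% of all loci do. When the chromosome medians were removed in the fit, 22 members were called higher (31.1% of all loci) and 1 lower (31.7% of all loci), and the median of the members was 0.14. Of the 30 higher calls 19 were kept and 11 lost, the latter those of Ndufv2, Ndufv1, Ndufv3, Ndufa6, Ndufa7, Ndufa11, Ndufb2, Ndufb9, Ndufaf2, Ndufaf8 and Ndufa4, which then lay between -0.03 and 0.14. Among the calls that were kept, Ndufs7 went from 0.60 to 0.30, Ndufa12 from 0.60 to 0.30, Ndufa9 from 0.60 to 0.26, Ndufa5 from 0.51 to 0.17 and Ndufaf7 from 0.45 to 0.28. Of the lower calls only Ndufaf4 was kept, at -0.42. Ndufaf3, whose chromosome 9 was low, stood 1.07 above its chromosome, and Ndufs4, at 0.64, and Ndufaf6, at 0.66, were also well above theirs.

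**Figure D4:**
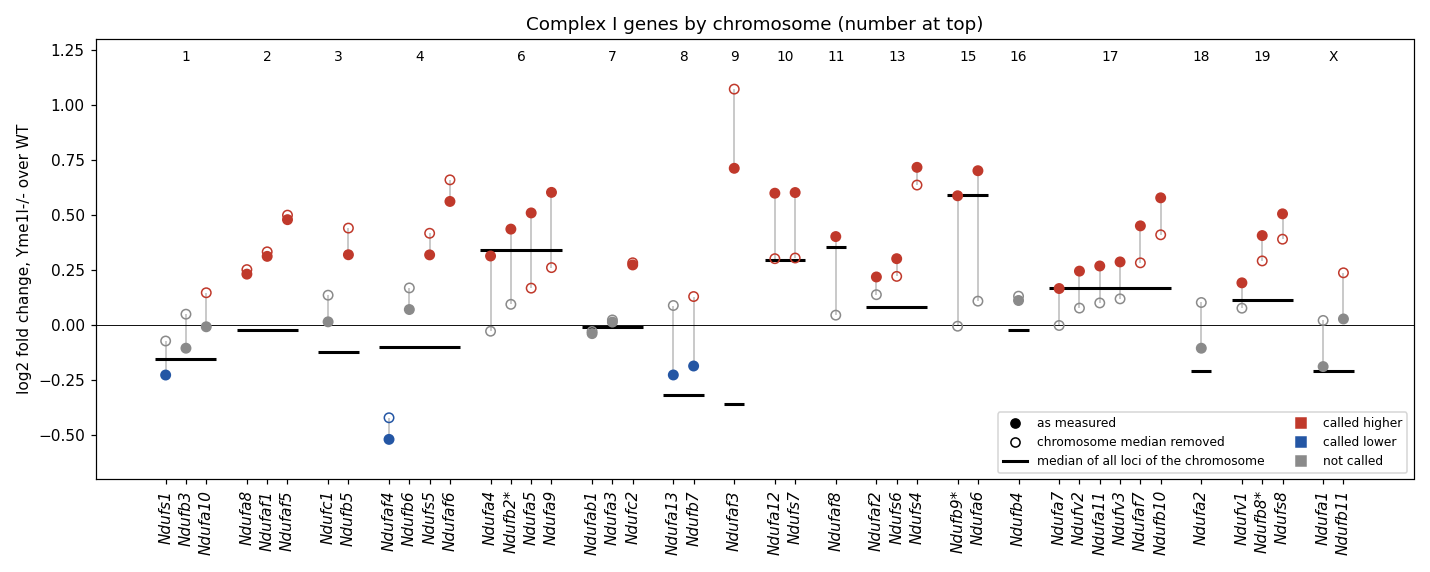
Log2 fold change of Yme1l-/- over WT (y axis) for 43 of the 44 tested members (x axis, ordered by chromosome, with the number at the top), with filled points as measured, open points after removal of the chromosome median, thick lines at the median of all tested loci of the chromosome, and red, blue and grey for called higher, called lower and not called. On chromosome 15 Ndufb9 drops to about 0 (-0.0047) and Ndufa6 to 0.11, whereas Ndufaf3 on chromosome 9 climbs to 1.07.

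After this removal the role groups drew closer. The median was 0.19 for the core, 0.17 for the peripheral-arm accessory subunits, 0.14 and 0.13 for the proximal and distal membrane-arm accessory subunits, and 0.31 for the assembly factors. The order of the groups was not tested.

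The subunits encoded in mtDNA gave 0 higher calls in edgeR, 0 also at an unadjusted p of 0.05, and 1 in DESeq2. Of 6 loci 2 fell, where 34.1% of all loci did: mt-Nd2 by 0.40 ± 0.06 and mt-Nd5 by 0.54 ± 0.07 on the log2 scale. mt-Nd5, a proton-pumping subunit at the end of the membrane arm, was counted at 79569, 72500 and 64599 fragments in WT and at 52584, 77156 and 76490 in Yme1l-/- libraries, or 2199 ± 213 and 1511 ± 16.3 CPM, with an adjusted p of 2.6e-05. mt-Nd1 stood at -0.06 ± 0.06 and was not called. mt-Nd3 could not be read: its fragments were 409, 12890 and 7 in WT and 2866, 670 and 1902 in Yme1l-/- libraries. mt-Nd6, the only one of these genes on the other mtDNA strand, had a log2 fold change of 0.87 ± 0.37 in edgeR (adjusted p = 0.101) and was called higher by DESeq2 (0.86, adjusted p = 0.0404) and in edgeR without WT replicate 1 (0.57, adjusted p = 0.00711). The libraries were selected for poly(A) RNA.

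Among 13 assembly factors without an Nduf name 5 rose and 5 fell, with a median log2 fold change of -0.018, where 33.6% and 34.1% of all loci were called higher and lower. Dmac2, which assists the distal membrane arm, rose from 9.12 ± 0.701 to 13.3 ± 0.148 CPM (0.54 ± 0.09, adjusted p = 0.000158), with 314, 272 and 312 fragments in WT and 465, 663 and 685 in Yme1l-/- libraries. Nubpl (0.47 ± 0.12), which delivers iron-sulfur clusters to complex I, rose too. Timmdc1 (-0.39 ± 0.06) and Tmem186 (-0.32 ± 0.07), which act in membrane-arm assembly, fell. The nuclear subunits of complexes II to V, the rest of the respiratory chain and the ATP synthase, gave 15 higher and 10 lower calls among 41 tested (33.6% and 34.1% of all loci), with a median of 0.0095, beside 22 higher and 3 lower calls and a median of 0.25 for the 35 subunits of complex I. The difference between both sets was not tested. With chromosome medians removed, the 35 subunits of complex I gave 17 higher and 0 lower calls (31.1% and 31.7% of all loci), with a median of 0.14. In complex III, part of the other set, Uqcrq (log2 fold change 0.91), Uqcr10 (0.77), Cyc1 (0.73), Uqcrb (0.50), Uqcr11 (0.36) and Uqcrc2 (0.13) were called higher. Uqcrh (-0.38) was called lower, and Uqcrfs1 (-0.16) and the scarcely counted Uqcrc1 (-0.0010) were not called.

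Among 10 regulators of respiratory genes, 9 were tested, 2 rose (33.6% of all loci) and 3 fell (34.1% of all loci), with a median log2 fold change of -0.047, and Yy1, Gabpb2 and Ppargc1b changed by at least 0.5. Yy1, whose motif letters are shown above without a test of binding, fell. It was counted at 6887, 6508 and 5976 fragments in WT and at 3707, 5412 and 5368 in Yme1l-/- libraries, or 197 ± 12.7 and 106 ± 1.01 CPM, and the log2 fold change was -0.89 ± 0.05 (adjusted p = 5.4e-08). The median of its chromosome 12 was -0.44, and with chromosome medians removed Yy1 stood at -0.45 (adjusted p = 1.7e-05). Gabpb2, one of the beta subunits that join GABPA in the ETS-type factor, fell by 0.62 ± 0.06 on the log2 scale (adjusted p = 2.5e-06), from 202 ± 11.6 to 131 ± 8.28 CPM, with 6275, 6647 and 6942 fragments in WT and 4252, 6791 and 6969 in Yme1l-/- libraries. Ppargc1b, a coactivator of mitochondrial biogenesis, was low throughout, with 28, 30 and 27 fragments in WT and 58, 94 and 93 in Yme1l-/- libraries, and rose by 1.05 ± 0.19 (adjusted p = 0.000394). Tfam rose from 83.9 ± 2.37 to 113 ± 5.12 CPM (0.42 ± 0.05, adjusted p = 1.4e-05), and the median of its chromosome 10 was 0.30. Gabpa fell (-0.14 ± 0.05), and Nrf1 was not called (-0.08 ± 0.04). No relation between these regulators and the members was tested.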

How the data were processed

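RNA from 3 cultures per genotype was poly(A)-selected, made into libraries with a stranded kit and sequenced. The authors aligned the reads with HISAT2 2.0.4 to GRCm38 (mm10), assembled with StringTie 1.3.3 and deposited raw fragment counts per locus, in which neighbouring genes can share 1 locus, as well as a Cuffdiff 2.2.1 table with 1 pooled FPKM value per genotype. Its fold changes, p and q values were not used. How multi-mapping reads were treated is not given in the sources used here.

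The counts of all loci were fitted in edgeR 4.0.16 (limma 3.58.1, R 4.3.3; filterByExpr with a minimum count of 10, TMM scaling, robust quasi-likelihood test) with genotype as the only term, and p-values were adjusted over the 13867 loci tested (Benjamini-Hochberg, called under 0.05). CPM of members and listed genes are scaled by TMM, those of cell type markers by the library total alone. The procedure was tested on simulated data. DESeq2 1.42.0, other scalings and filters, a replicate block, leaving out each culture, and removing chromosome medians were alternatives. Positions are from GENCODE M21 (GRCm38), and start-region sequences from RefSeq (GRCm38.p6). Full values are given for members called with an absolute log2 fold change of at least 0.5 and for the 5 highest and 5 lowest in any case. The assembly factors without an Nduf name and the regulators were to be named when called with such a change. The subunits of complexes II to V were to be given by counts and median only. The other genes of these lists were named after their values were seen. The members and lists were chosen with earlier results of these data known. The values of 1 tested member are not reported here, and it remains in the counts and medians.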

Additional observations from a re-analysis of the deposited data

How the results depend on the processing

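Over 13 alternatives per member, 30 of the 34 called members kept their call and direction in every alternative except the removal of chromosome medians, and 19 of 34 did so in every alternative. With chromosome medians removed, the members called lower went from 4 to 1 (31.7% of all loci), and the median went from 0.28 to 0.143. The assembly factors without an Nduf name called lower went from 5 to 3 and those called higher from 5 to 7. The regulators called lower went from 3 to 5. Log2 fold changes that then changed sign were those of Ndufa7 (-0.0014), Ndufa2 (0.10), Ndufa10 (0.15), Ndufa1 (0.022), Ndufa13 (0.089), Ndufb9 (-0.0047), Ndufb3 (0.050), Ndufb7 (0.13) and Ndufa4 (-0.027). Upper-quartile scaling turned Ndufa10 (0.052) and Ndufab1 (0.021), and also left 3 assembly factors without an Nduf name called lower. DESeq2 called 1 mtDNA-encoded subunit higher. Leaving out 1 culture at a time gave 27 to 30 members called higher, 3 to 5 called lower and a median of 0.245 to 0.316. In each of these fits, between 31% and 34% of all loci tested were called in either direction. The assembly factors without an Nduf name called lower ranged from 3 to 5, with 3 without Yme1l-/- replicate 2 or replicate 3, and the mtDNA-encoded subunits called higher from 0 to 1, with 1 without WT replicate 1. Without 1 culture the sign also turned for uncalled loci, with ranges of -0.048 to 0.021 for Ndufa10, -0.082 to 0.029 for Ndufab1, -0.045 to 0.052 for Ndufa3, -0.049 to 0.069 for Ndufc1, -0.051 to 0.086 for Ndufb11, -0.026 to 0.20 for Ndufb4, -0.016 to 0.14 for Ndufb6, -2.42 to 2.79 for mt-Nd3 and -0.20 to 0.34 for the locus of mt-Nd4 and mt-Nd4l. Over all loci tested, the deviations of cultures with the same replicate number correlated at 0.144, -0.0939 and 0.0480. Those of the other pairs of cultures correlated at -0.178 to 0.161. Cultures were therefore not treated as pairs in the main fit, although replicate 1 was the highest for the members in both genotypes. With a replicate block, 30 members were called higher and 5 lower, beside 34.9% and 35.7% of all loci. Ndufa2 (-0.10) was added, and mt-Nd3 turned to 1.10. The cause of the shifts with chromosome medians removed was not tested. The least abundant tested members, Ndufaf3 (110 to 282 fragments) and Ndufaf6 (148 to 356), kept their calls in all 13 alternatives, and Ndufs3 and Ndufa4l2 held too few fragments to be tested.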
